A study of Mus musculus with 6 samples.

Results

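The genes described here encode neurotrophins and the receptors that bind them in mouse neural stem cells (NSCs), namely *Ntrk2* (TrkB), *Ntrk3* (TrkC), *Ngfr* (p75NTR), *Sort1* (sortilin), *Bdnf* and *Ntf3* (neurotrophin-3). They were found by gene symbol, 6 of 6, in a table of 53379 genes. NSCs had been derived from the cortex of *Tbl1xr1* flox/flox embryos at E14.5 and grown as neurospheres, free-floating clusters of dividing cells, in medium with EGF and bFGF at 10 ng/ml each. All cells carried the floxed alleles. Control cells had received a lentivirus carrying GFP alone, and the other group one carrying GFP together with Cre, the recombinase that removes the floxed exon, and cells positive for GFP had been sorted. RNA-seq was analyzed for 3 libraries labelled GFP (replicates 1, 1_1 and 2) and 3 labelled Cre (replicates 2, 2_2 and 3).

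Neurotrophins are secreted growth factors that are made as longer precursors and cut to their mature form. Mature BDNF binds the receptor tyrosine kinase TrkB and neurotrophin-3 binds mainly TrkC, and the bound receptors recruit adaptor proteins that start the RAS-MAPK, PI3K and PLCγ cascades. p75NTR binds mature neurotrophins of every kind and, together with sortilin, the uncut precursors. In the developing cortex TrkB and TrkC are the main Trk receptors, and both genes also give shorter forms that lack the kinase, of which truncated TrkB is the form known from astrocytes.

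In these cells the genes of TrkB and TrkC rose, and those of BDNF and sortilin did not pass the test. *Ntrk2* was 1.67-fold higher (95% interval 1.40 to 2.00) and *Ntrk3* 1.57-fold higher (1.29 to 1.92) in the libraries labelled Cre, with 3 libraries per group. *Sort1* and *Bdnf* had overlapping groups, *Ngfr* had at most 6 reads in a library and *Ntf3* none. Of the 6 genes, 4 averaged at least 10 normalized counts over the 6 libraries and were tested, and 2 of these 4 were higher at an adjusted p under 0.05 (limma). Over the 14840 genes tested, 9.96% passed that threshold in either direction, 4.74% higher and 5.22% lower. A normalized count is the number of reads on a gene divided by a size factor of its library, and fold changes are from log2(normalized count + 1).

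Libraries held 7510615 to 14828100 reads on genes, with a median of 7762821 in GFP and 12210170 in Cre. The mRNA of *Tbl1xr1*, the targeted gene, stood at 2522, 2190 and 2721 normalized counts in GFP and at 3774, 3463 and 2905 in Cre, so it was no lower where the label says Cre. The log2 fold change was 0.45 ± 0.14 (SE, n = 3 per group), with an adjusted p of 0.060 (limma). It passed the threshold as higher in Cre in DESeq2 (adjusted p = 0.0398) and, in limma, without Cre replicate 3 (0.0234). For NSCs made this way the paper reports genotyping by PCR and absence of *Tbl1xr1* mRNA (RT-qPCR) and protein (Western blot). It does not say whether those cultures were the ones sequenced. A count over the whole gene does not read the deleted exon, so the groups are called here by their labels. Of the 10 NSC markers all were above the filter, and their summed level was 33620 to 37395 normalized counts in GFP and 32929 to 34690 in Cre. The labels do not say whether replicates were separate cultures, so p-values measure the spread between these libraries, which may be partly technical. An effect of the culture a library came from and one of the deletion cannot be told apart.

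**Figure D1:**
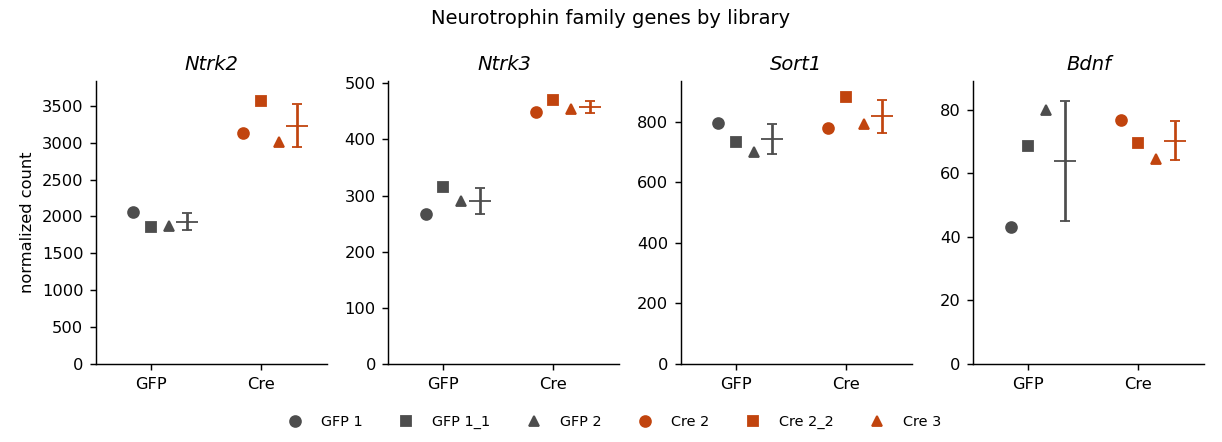
Normalized counts (y axis, from 0) of *Ntrk2*, *Ntrk3*, *Sort1* and *Bdnf* in each of the 3 GFP and 3 Cre libraries, with the mean and SD of each group beside the points. The groups are apart for *Ntrk2* and *Ntrk3* and overlap for *Sort1* and *Bdnf*.

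*Ntrk2* (ENSMUSG00000055254, chr13:58806472-59133970 in GRCm38) encodes TrkB, the receptor of BDNF and of neurotrophin-4. It had 2064, 1856 and 1870 normalized counts in GFP replicates 1, 1_1 and 2 and 3128, 3567 and 3008 in Cre replicates 2, 2_2 and 3. The groups did not overlap, and the lowest Cre value exceeded the highest GFP value by more than the SD of either group. The means were 1930 ± 116 in GFP and 3234 ± 294 in Cre (SD, n = 3). The log2 fold change was 0.74 ± 0.12 (SE), with an adjusted p of 0.00305 (limma). The values rested on 1269 to 4516 reads per library, and scaled to the library total they were 169 to 201 CPM in GFP and 282 to 339 CPM in Cre.

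The promoter of *Ntrk2* is shown because this gene had the largest fold change of the 4 tested. The RefSeq table of promoters gives 1 start for it, and the window of 250 bases before that start was 62.8% G or C, against a median of 52.4% over 32851 mouse promoters. Its first 153 bases, which lie before the outermost annotated start of the gene on the plus strand (chr13:58806319-58806471, GRCm38.p6), read 5′ to 3′ as below, with the match to the E box in capitals.

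*Ntrk2*: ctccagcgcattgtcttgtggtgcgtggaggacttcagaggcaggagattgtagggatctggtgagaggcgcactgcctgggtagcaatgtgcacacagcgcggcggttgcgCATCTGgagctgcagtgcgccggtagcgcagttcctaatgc

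The E box, CANNTG, is the motif read by proneural factors, and it was searched on both strands. The window held 1 match, 138 bases before the start, and 66.2% of all promoters hold at least 1. No match was found for AGGTCA, the half-site of nuclear receptors (14.0% of all promoters), for GGGCGG, the GC box read by SP factors (32.7%), for TGACGTCA, the full site of CREB (1.55%), or for its half-site TGACG (17.8%), which the full site contains. These are letters in a window and do not show binding.

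*Ntrk3* (ENSMUSG00000059146, chr7:78179986-78581034) encodes TrkC, the receptor of neurotrophin-3. Its normalized counts were 268, 315 and 291 in GFP and 449, 470 and 454 in Cre. The Cre libraries lay closer to each other than the GFP libraries did, and all were above GFP. Means were 291 ± 23.3 and 458 ± 10.8 (SD, n = 3). The log2 fold change was 0.65 ± 0.13 (SE) with an adjusted p of 0.0108 (limma). Without GFP replicate 1, the lowest library, it was 0.60 with an adjusted p of 0.0725. Both Trk genes thus had groups that did not overlap, as did 30.3% of all genes tested.

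The annotation gives *Ntrk2* 5 protein-coding transcripts with coding parts of 1365 to 2463 bases, and *Ntrk3* 2 of 1836 and 2475 bases. Both receptors have shorter forms that lack the kinase, but coding length alone does not say which of these transcripts encode them. Counts per gene add all forms, so which form of TrkB or TrkC rose was not measured.

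*Ngfr* (chr11:95568818-95587698) encodes p75NTR, a receptor of the tumor necrosis factor receptor family that is abundant in neural crest cells. It had 0, 0 and 1 reads in GFP and 4, 6 and 0 in Cre. Summed over the groups this was 1 read against 10, a depth-corrected ratio of 6.78 with a 95% counting interval of 0.964 to 294, which includes 1. An exact two-sided permutation test over the libraries gave p = 0.4, where 0.1 is the smallest that 3 against 3 can give.

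*Bdnf* (chr2:109674700-109727043) encodes a neurotrophin. It had 43.1, 68.8 and 80.0 normalized counts in GFP and 76.9, 69.7 and 64.5 in Cre. All Cre values lay between the lowest and the highest GFP value. Means were 64.0 ± 18.9 and 70.4 ± 6.23 (SD, n = 3). The log2 fold change was 0.18 ± 0.26 (SE), with a 95% interval of -0.40 to 0.75 and an adjusted p of 0.727 (limma). The values rested on 47 to 111 reads per library, and the interval of the fold ran from 0.758 to 1.69. Without GFP replicate 1 the log2 fold change turned to -0.08. *Bdnf* has 10 coding transcripts, with coding parts of 747 to 771 bases, and their counts are summed here.

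*Ntf3* (chr6:126101412-126166772), which encodes neurotrophin-3, had 0 reads in all 6 libraries. A count of 0 allows up to 3 reads, or 2.08 to 4.39 normalized counts, depending on the library. *Ntf5*, which encodes neurotrophin-4, had 2 reads in GFP and 3 in Cre, with at most 1 in any library. These intervals and limits cover counting error only.

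*Sort1* (chr3:108283974-108361519) encodes sortilin, a sorting receptor that carries neurotrophin precursors inside the cell and binds them with p75NTR at its surface. It had 795, 733 and 699 normalized counts in GFP and 780, 880 and 793 in Cre. GFP replicate 1 was above Cre replicates 2 and 3, so the groups overlapped. Means were 742 ± 48.6 and 818 ± 54.3 (SD, n = 3). The log2 fold change was 0.14 ± 0.12 (SE), with a 95% interval of -0.12 to 0.40 and an adjusted p of 0.512 (limma). A rise of more than 1.32-fold lay outside that interval. *Gm12523* overlaps *Sort1*, and use of strand in the counting is not given in the sources used here.

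Other sortilin family receptors were measured with it. *Sorcs1* had 595 to 781 normalized counts in GFP and 612 to 774 in Cre, a log2 fold change of 0.07 with an adjusted p of 0.800. *Sorl1* (SORLA) had 19.0 to 34.9 in GFP and 23.5 to 30.1 in Cre, a log2 fold change of -0.02 with an adjusted p of 0.978. *Sorcs2*, which encodes a further partner of p75NTR, had 39.5, 61.4 and 54.7 in GFP and 35.3, 20.7 and 17.0 in Cre. Its groups did not overlap, as in 30.3% of all genes tested. Its log2 fold change of -1.10 ± 0.34 (SE) had an adjusted p of 0.0619 in limma. *Sorcs2* passed the threshold as lower in Cre under 2 of 15 alternatives. With 1 library left out, its adjusted p ran from 0.0140 to 0.206 (limma). *Sorcs3* had 0 to 1.46 in GFP and 9.0, 0 and 14.3 in Cre and was under the filter. The 6 receptor genes tested had a median log2 fold change of 0.11 against -0.001 over all genes tested.

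Levels can be compared between genes only per length. Divided by the kilobases of annotated exon, the normalized counts of *Ntrk2* averaged 128 ± 7.70 in GFP and 214 ± 19.5 in Cre (SD, n = 3), those of *Sort1* 98.2 ± 6.43 and 108 ± 7.18, those of *Ntrk3* 55.5 ± 4.44 and 87.4 ± 2.07, and those of *Bdnf* 10.9 ± 3.23 and 12.03 ± 1.06. The order *Ntrk2*, *Sort1*, *Ntrk3*, *Bdnf*, *Ngfr*, *Ntf3* held in 6 of 6 libraries, except that *Ngfr* and *Ntf3* were tied at 0 in 3 of them. No range of *Ntrk2*, *Sort1*, *Ntrk3* or *Bdnf* per kilobase touched that of its neighbour within a group. The exon length joins all transcripts of a gene, so a gene expressed as a short form only would be set too low on this scale.

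**Figure D2:**
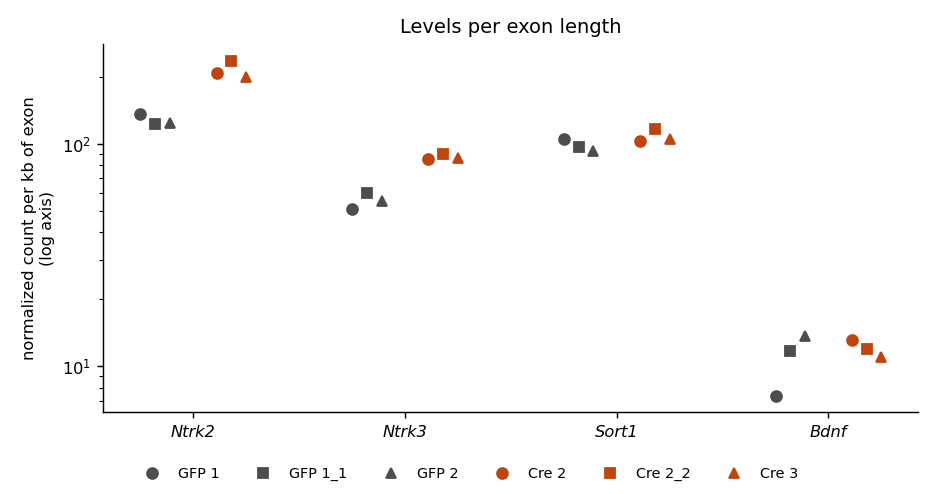
Normalized counts per kilobase of annotated exon (log axis) of *Ntrk2*, *Ntrk3*, *Sort1* and *Bdnf*, with 1 point per library. *Ntrk2* is the highest and *Bdnf* the lowest of the 4 in every library.

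A ratio of 2 genes within a library does not depend on how libraries were scaled. Per kilobase, *Ntrk2* stood at 1.30, 1.27 and 1.34 times *Sort1* in GFP and at 2.01, 2.03 and 1.90 times in Cre, with no overlap. *Ntrk3* stood at 0.486, 0.619 and 0.600 times *Sort1* in GFP and at 0.831, 0.771 and 0.825 in Cre, also with no overlap. In log2 these ratios were higher in Cre by 0.60 and 0.52. The ratio of *Ntrk2* to *Ntrk3* overlapped between the groups, at 2.67, 2.05 and 2.23 in GFP and 2.42, 2.63 and 2.30 in Cre. So did that of *Ntrk2* to *Bdnf*, at 18.5, 10.5 and 9.06 in GFP and 15.8, 19.8 and 18.1 in Cre. Exact two-sided permutation tests of the 4 ratios gave p = 0.1, 0.1, 0.5 and 0.3 in that order, and 0.2, 0.2, 0.5 and 0.4 after Benjamini-Hochberg adjustment over the 4. The design of 3 against 3 cannot go below 0.1.

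**Figure D3:**
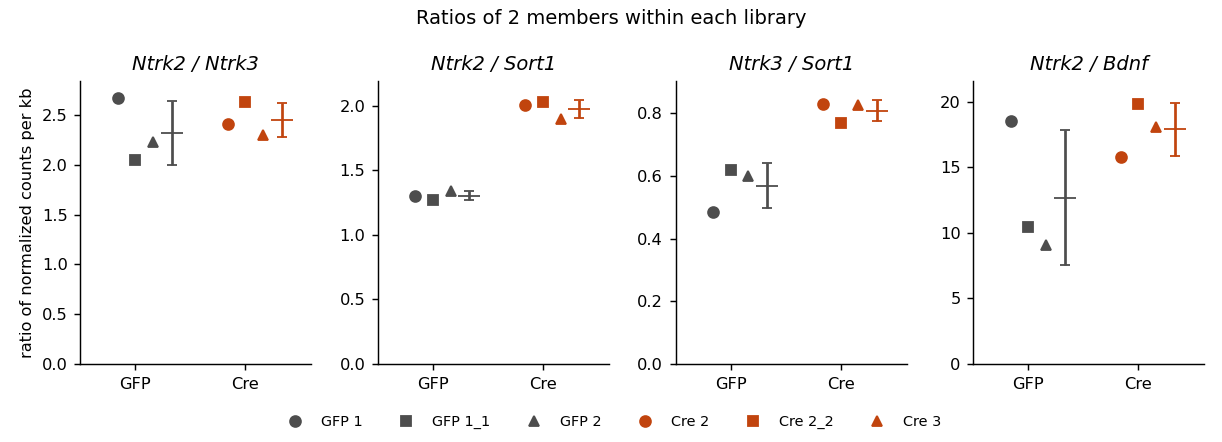
Ratio of the normalized counts per kilobase of 2 genes within each library (y axis, from 0), for the 3 GFP and 3 Cre libraries, with the mean and SD of each group. *Ntrk2* and *Ntrk3* stand higher against *Sort1* in every Cre library than in any GFP library, while their ratio to each other overlapped between groups.

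Among 11134 genes with a mean of at least 50 normalized counts, those whose level followed each gene most closely over the 6 libraries were named by Pearson's r, as a description. For *Ntrk2* these were *Fam184a* (r = 0.998), whose mean was 57.8 normalized counts in GFP and 148 in Cre, and *Tbl1x* (r = 0.998), the X-linked paralog of *Tbl1xr1*, with 1603 and 2000. *Tbl1x* itself had a log2 fold change of 0.32 and an adjusted p of 0.0847 (limma). For *Ntrk3* they were *Sec11c* (r = 0.999), a subunit of the signal peptidase, with means of 1263 and 2156, and *Baz2b* (r = 0.998), a bromodomain protein, with 2302 and 3267. For *Bdnf* they were *Rgag4* (r = 0.976) and *Tsen54* (r = 0.959), and for *Sort1* *Lsm14b* (r = 0.977) and *Zmiz1* (r = 0.974), of which none passed the threshold. The 6 points behind each r fall into the 2 groups of libraries, which were apart for *Ntrk2* and *Ntrk3*.

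Genes that act before and after the receptors were taken from 6 lists by role, 77 genes of which 59 were tested. Of these 59, 8 rose and 1 fell at an adjusted p under 0.05 (limma), and the median log2 fold change was 0.14. Without the 4 tested receptor and ligand genes above, 6 of 55 rose and 1 fell, 12.7% against the 9.96% of all genes tested. By list, edgeR called the same genes as limma, and DESeq2 called *Egr2* as well. The count of 9 was 2 without GFP replicate 1, 5 without GFP replicate 1_1, 2 without GFP replicate 2 and 4 without Cre replicate 2_2.

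Proteases that cut the precursors or shed the receptors came first. Of 18 genes, 12 were tested, and 2 rose (16.7%, against 9.96% of all genes tested that passed in either direction). *Plat*, tissue plasminogen activator, which activates the plasmin that cuts proBDNF outside the cell, had 947, 1144 and 760 normalized counts in GFP and 1592, 1686 and 1421 in Cre, a log2 fold change of 0.74 ± 0.15 (SE) with an adjusted p of 0.0125. *Aph1a*, a subunit of the γ-secretase that cuts p75NTR within the membrane, had 274, 310 and 272 in GFP and 384, 519 and 517 in Cre, a log2 fold change of 0.72 ± 0.16 (SE) with an adjusted p of 0.0156. The groups were apart for both genes, as for 30.3% of all genes tested. Their adjusted p rose to at most 0.0690 and 0.0834 without GFP replicate 1, GFP replicate 2 or Cre replicate 2_2. *Furin*, the protease that cuts precursors inside the cell, did not pass (-0.11, adjusted p = 0.752), nor did the receptor sheddases *Adam10* (-0.20, adjusted p = 0.392) and *Adam17* (0.18, adjusted p = 0.373). *Plg*, the precursor of plasmin, had a mean under 1 normalized count.

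Of 23 genes of Trk adaptors and docking proteins, 20 were tested, 2 rose and 1 fell (15%, against 9.96% of all genes tested). *Shc4*, a member of the SHC family, had 950, 854 and 875 normalized counts in GFP and 1850, 1451 and 1117 in Cre, a log2 fold change of 0.69 ± 0.17 (SE) with an adjusted p of 0.0252. *Kidins220*, a membrane scaffold that Trk kinases phosphorylate, had 952, 1186 and 1000 in GFP and 1500, 1544 and 1613 in Cre, a log2 fold change of 0.58 ± 0.12 (SE) with an adjusted p of 0.0136. *Sh2b2*, an adaptor of receptor tyrosine kinases, had 55.1, 43.9 and 52.0 in GFP and 12.5, 30.1 and 20.6 in Cre, a fall by 1.29 ± 0.35 (SE) on the log2 scale with an adjusted p of 0.0388. Each of the 3 had groups that did not overlap, as did 6 of the 20 in all and 30.3% of all genes tested. *Shc4* no longer passed without any one of the GFP replicates or Cre replicate 2_2 (adjusted p 0.0791 to 0.102), *Kidins220* without GFP replicate 1, GFP replicate 2 or Cre replicate 2_2 (0.0568 to 0.0937), and *Sh2b2* without any one of the GFP replicates, Cre replicate 2 or Cre replicate 3 (0.0536 to 0.157). The other SHC adaptors *Shc1* (-0.04) and *Shc3* (0.10), the docking protein *Frs2* (0.38), *Plcg1* (0.01) and *Ptpn11* (0.08) had adjusted p-values of 0.298 to 0.977. *Grb2*, the adaptor that brings SOS to the receptor, had 523 to 621 in GFP and 695 to 833 in Cre, a log2 fold change of 0.42 with an adjusted p of 0.0662.

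Of 13 partners and effectors of p75NTR, 12 were tested and none passed the threshold in limma, with 2 at an unadjusted p under 0.05. These 2 were *Ndn* (necdin, 0.70, adjusted p = 0.102) and *Arhgdia* (RhoGDI, -0.30, adjusted p = 0.175). None of the 12 passed in edgeR or DESeq2 either.

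Of 10 genes that neurotrophins are known to induce, 8 were tested, and *Egr1* and *Egr3* rose (25%, against 9.96% of all genes tested). Both are immediate early genes that many growth factors induce through MAPK, and the cells were kept in EGF and bFGF. *Egr3* had 7.34, 2.93 and 5.33 normalized counts in GFP and 28.4, 162 and 23.3 in Cre, a log2 fold change of 3.04 ± 0.66 (SE) with an adjusted p of 0.0150 (limma). *Egr1* had 1290, 1201 and 1270 in GFP and 4469, 3456 and 1403 in Cre, a log2 fold change of 1.15 ± 0.32 (SE) with an adjusted p of 0.0446. Cre replicate 3 was close to GFP for *Egr1*, and the SD was 1562 in Cre against 46.8 in GFP. The call on *Egr1* was lost without any one of the GFP replicates or Cre replicate 2_2, with adjusted p-values of 0.132 to 0.177, and that on *Egr3* without GFP replicate 1_1 or 2, at 0.0674 and 0.0592. *Egr2* (1.36, adjusted p = 0.0876) and *Nr4a1* (1.09, adjusted p = 0.264) did not pass, and *Fos* (0.12), *Junb* (0.09), *Arc* (0.14) and *Homer1* (-0.08) had adjusted p-values of 0.775 to 0.932. In the same 3 Cre libraries *Fos* had 318, 131 and 125 normalized counts, so Cre replicate 2 alone was above the 149 to 165 of GFP.

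**Figure D4:**
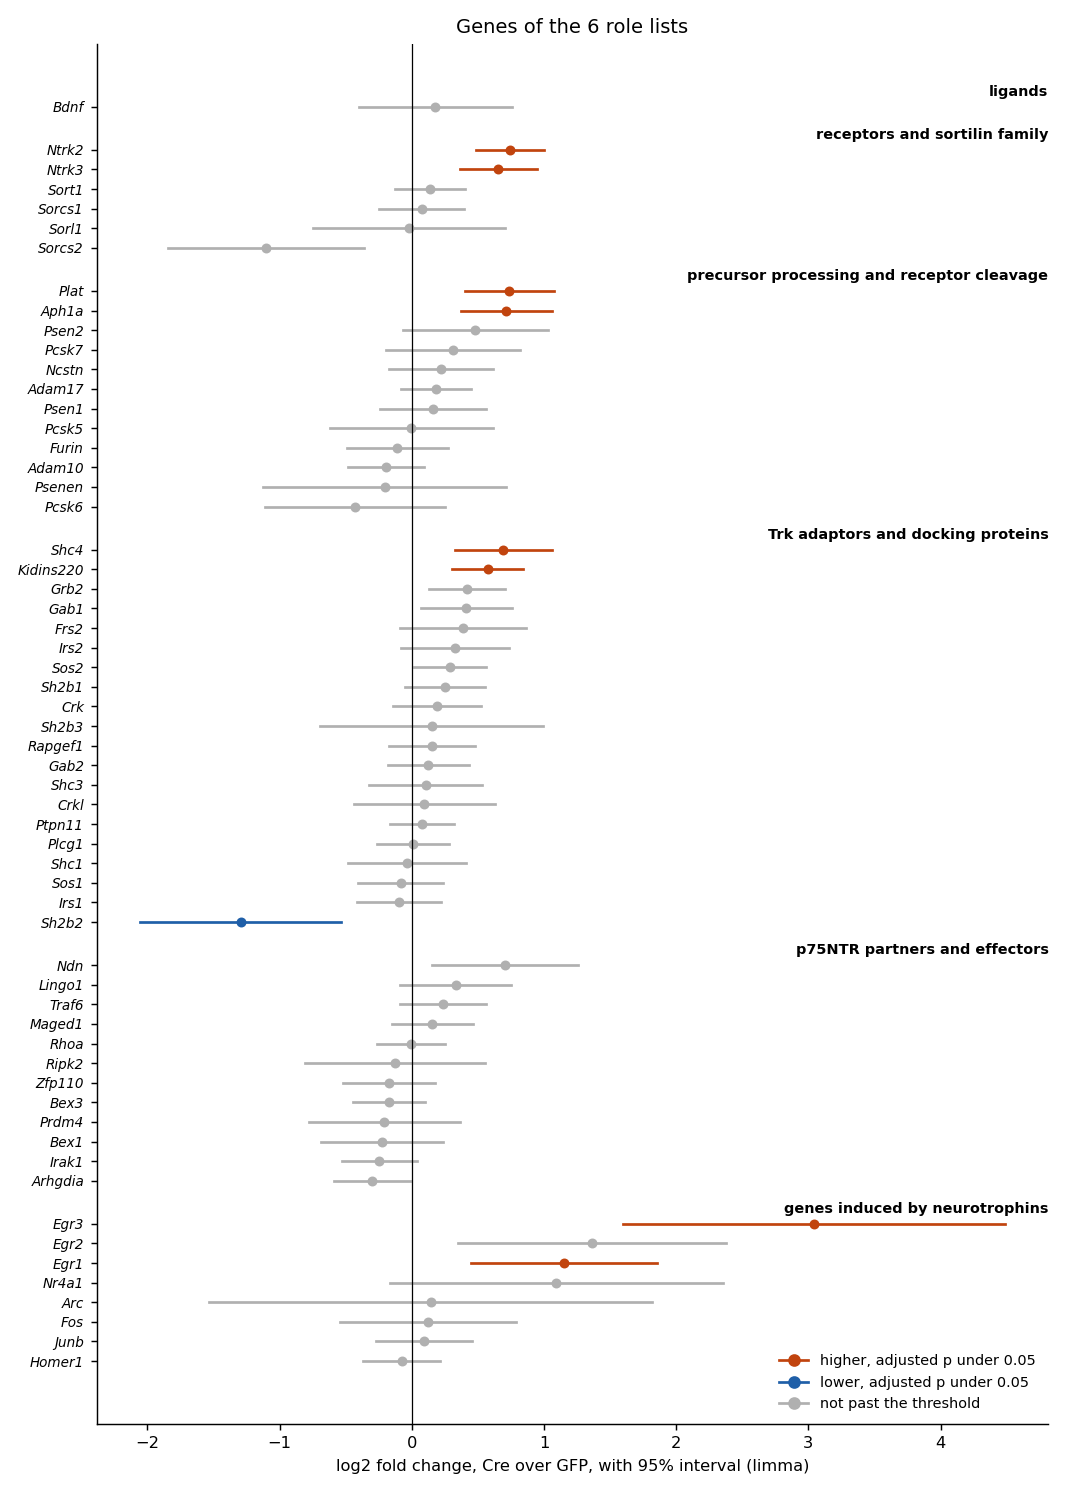
Log2 fold change, Cre over GFP, with its 95% interval (limma) for the 59 tested genes of the 6 role lists, colored by whether the adjusted p was under 0.05. *Ntrk2* and *Ntrk3* and 6 other genes are to the right of 0 in color, and *Sh2b2* alone is to the left.

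Downstream genes were read from the pathway lists in the table of MAPK-related genes that the study took from databases. Of 126 genes of the KEGG neurotrophin pathway, 106 were tested, 8 rose and 7 fell (14.2% in all, against 9.96% of all genes tested), with a median log2 fold change of 0.01. Without the 4 tested family genes, 6 rose and 7 fell, 12.7% of 102 genes. The 15 genes became 6 without GFP replicate 1 or GFP replicate 2, 8 without GFP replicate 1_1 and 9 without Cre replicate 2_2. The 5 largest rises among them were *Camk2d*, *Irak4*, *Ntrk2*, *Map3k1* and *Shc4*. *Camk2d*, a calcium-dependent kinase, went from 112 ± 22.4 to 251 ± 39.9 normalized counts (SD, n = 3; log2 fold change 1.16, adjusted p = 0.00434), *Irak4*, a kinase of interleukin signalling, from 81.9 ± 16.7 to 147 ± 16.0 (0.85, adjusted p = 0.0287), and *Map3k1*, an upstream kinase of JNK and ERK, from 430 ± 87.2 to 699 ± 63.1 (0.72, adjusted p = 0.0201).

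The 5 largest falls were *Sh2b2*, *Mapk12*, *Camk2b*, *Hras* and *Ywhah*. *Mapk12*, which encodes p38γ, fell from 191 ± 12.1 to 92.3 ± 13.1 normalized counts (SD, n = 3; log2 fold change -1.05, adjusted p = 0.00462), and *Camk2b* from 2286 ± 258 to 1442 ± 66.9 (-0.66, adjusted p = 0.00648). *Hras*, the RAS protein that links GRB2 and SOS to RAF, fell from 573 ± 26.5 to 365 ± 27.2 (-0.65, adjusted p = 0.00933). *Ywhah*, a 14-3-3 protein, fell from 384 ± 39.3 to 248 ± 34.3 (-0.64, adjusted p = 0.0259). *Camk2d* thus rose while its paralog *Camk2b* fell. *Mapk12*, *Camk2b* and *Camk2d* passed the threshold under all 16 alternatives tried, whereas *Hras* missed it without GFP replicate 1 (0.0668), *Map3k1* without GFP replicate 2 or Cre replicate 2_2 (0.0797 and 0.0990), *Ywhah* without any one of the GFP replicates or Cre replicate 3 (0.0522 to 0.144) and *Irak4* without any one library other than Cre replicate 2 (0.0580 to 0.115).

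Of 34 genes of the PID Trk to MAPK list, 30 were tested. Of these, 3 rose (*Egr1*, *Mef2c* and *Cdk5r1*) and 2 fell (*Hras* and *Mapk3*), 16.7% of the 30 against 9.96% of all genes tested. *Cdk5r1*, the p35 activator of CDK5, went from 481 ± 77.6 to 771 ± 127 normalized counts (SD, n = 3; log2 fold change 0.68, adjusted p = 0.0241), and *Mef2c*, a transcription factor, from 557 ± 57.2 to 962 ± 317 (0.74, adjusted p = 0.0454). *Mapk3*, which encodes ERK1, fell from 2095 ± 152 to 1417 ± 156 (-0.57, adjusted p = 0.0159). *Mef2c* no longer passed without any one library other than Cre replicate 2 (0.0837 to 0.178), *Cdk5r1* without GFP replicate 1 or 1_1 (0.106 and 0.101), and *Mapk3* without GFP replicate 1_1, GFP replicate 2 or Cre replicate 2_2 (0.0707 to 0.0843).

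Marker genes of glia moved in the same direction as *Ntrk2* and *Ntrk3*. Of 11 astrocyte markers, 10 were tested, 6 rose and none fell at an adjusted p under 0.05 (limma). That was 60% of the 10, whereas 4.74% of all genes tested rose and 5.22% fell. The 10 had a median log2 fold change of 0.77. The 11 summed to 14831 to 16121 normalized counts in GFP and 23629 to 27604 in Cre. Most of that sum came from *Slc1a3* (5811 to 6232 and 7306 to 7465) and *Sox9* (3786 to 4656 and 7352 to 10100). *Slc1a3* did not pass (0.29, adjusted p = 0.126, limma). Those that rose were *S100b* (3.10), *Aqp4* (1.64), *Fgfr3* (1.44), *Slc1a2* (1.16), *Sox9* (1.01) and *Glul* (0.52), while *Gfap*, the defining filament protein of astrocytes, had at most 10.3 normalized counts. *Aldh1l1*, an astrocyte enzyme, went the other way, with 18.4, 19.0 and 14.7 normalized counts in GFP and 9.0, 2.58 and 4.48 in Cre. Its groups did not overlap, as in 30.3% of all genes tested. The log2 fold change was -1.65 with an adjusted p of 0.0650 (limma). Of 12 markers of the oligodendrocyte lineage, 7 were tested and *Olig2* (0.71), *Pdgfra* (0.86) and *Cspg4* (0.64) rose. Those 3 were 42.9% of the 7, against 4.74% of all genes tested that rose. The 12 summed to 12905 to 14833 in GFP and 17822 to 20127 in Cre. *Olig1* (6496 to 8734 and 7543 to 10984) and *Olig2* (4376 to 5556 and 7954 to 9042) made up most of that sum. *Olig1* did not pass (0.18, adjusted p = 0.554, limma), and *Sox10*, *Mog*, *Mag*, *Myrf* and *Enpp6* were under the filter. *Nes*, which encodes the NSC filament nestin, was the only one of 10 NSC markers to pass and fell by 0.85. That was 10% of the list, near the 9.96% of all genes tested. Of 15 neuron markers 9 were tested, *Elavl4* rose (2.32), *Gap43* fell (-0.76) and *Stmn2* and *Neurod6* were at 0 in all libraries. The 2 calls were 22.2% of the 9, against 9.96% of all genes tested. With a library left out, *Aqp4*, *Glul*, *Pdgfra*, *Cspg4* and *Gap43* missed the threshold at least once, at adjusted p-values of up to 0.121 (limma, *Cspg4* without GFP replicate 2). The part of these markers in the result on *Ntrk2* and *Ntrk3* was not tested, and in bulk RNA a change in the number of cells of a type and in RNA per cell cannot be told apart.

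Other cell types gave little signal. The 7 Schwann cell and neural crest markers, cells in which p75NTR is abundant, summed to 2.67 to 6.42 normalized counts in GFP and 2.77 to 11.2 in Cre, with *Erbb3* and *Foxd3* at 0. The 7 microglia markers summed to 164 to 206 and 168 to 274, with *Tmem119* at 0 and most of the sum from *Csf1r* (154 to 201 in GFP, 162 to 264 in Cre). The 7 endothelial and mural markers summed to 26.7 to 42.2 and 14.3 to 22.9, with *Cdh5* and *Cldn5* at 0, and the 8 meningeal markers to 285 to 329 and 193 to 310, with *Col1a2*, *Pdgfrb* and *Foxd1* at 0 and most of the sum from *Foxc1* (279 to 325 and 171 to 296). None of these 4 lists had a gene past the threshold in limma, of 1 microglia, 1 endothelial and 1 meningeal gene tested, and 2 of these 3 had an unadjusted p under 0.05. None of the 3 passed in edgeR or DESeq2.

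**Figure D5:**
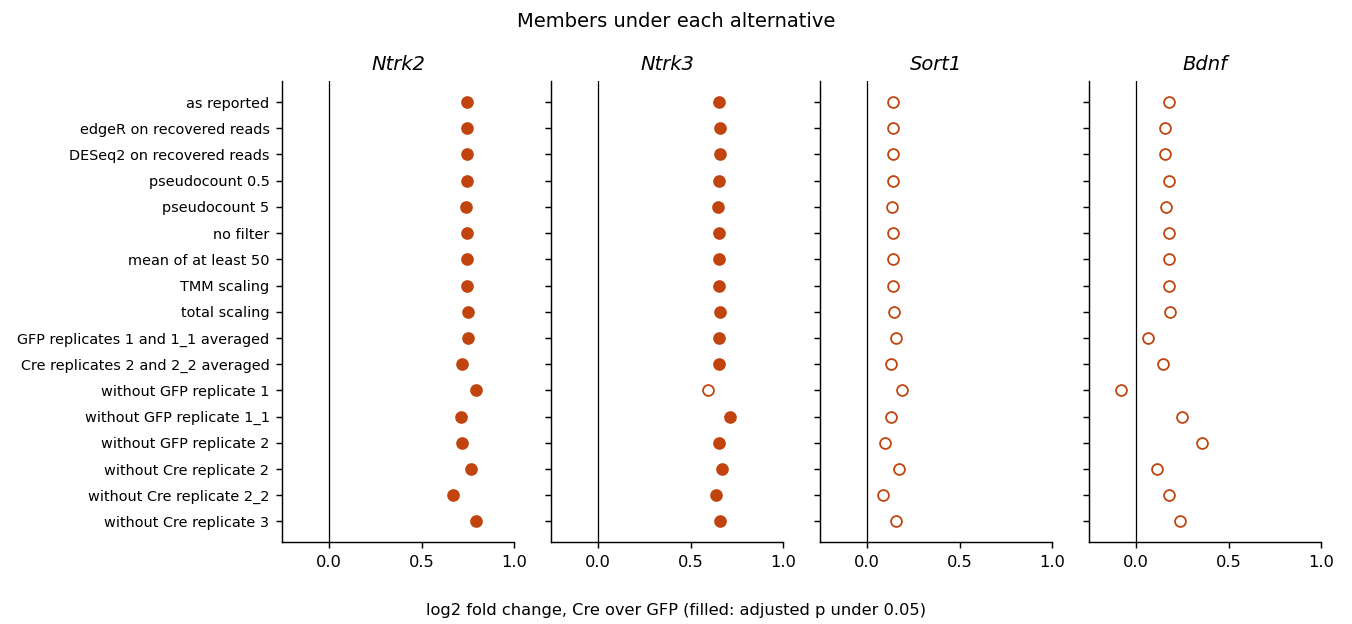
Log2 fold change, Cre over GFP (x axis), of *Ntrk2*, *Ntrk3*, *Sort1* and *Bdnf* as reported and under 16 alternatives, filled where the adjusted p was under 0.05. *Ntrk2* stays between 0.67 and 0.79 and filled, *Ntrk3* is open once, and *Bdnf* crosses 0 once.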

How the data were processed

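RNA-seq of 6 libraries was analyzed. NSC libraries were prepared with a TruSeq kit, per the labels. The methods name alignment with TopHat to mm9 and mm10, whereas the submitters' processing notes name STAR 2.7, mm10 and DESeq2. Counter, strand setting and annotation are not given in the sources used here. The values the authors deposited are DESeq2-normalized counts, a signal per gene and library. Their log2 fold changes, standard errors, test score and p-values are also in the deposited table and were not used. Of 53379 rows, 873 have no gene name, and 1 without a value in a library was dropped.

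The value of 1 read was found for each library from the lowest values, and 100% of values were whole reads to within 0.001. Tests used limma 3.58.1 (lmFit, eBayes with trend) in R 4.3.3 on log2(normalized count + 1) for 14840 genes with a mean of at least 10, with Benjamini-Hochberg adjustment and a threshold of 0.05. Alternatives were edgeR 4.0.16 (quasi-likelihood, TMM) and DESeq2 1.42.0 on recovered reads, pseudocounts of 0.5 and 5, no filter, a mean of at least 50, TMM and total scaling, averaging GFP replicates 1 and 1_1 or Cre replicates 2 and 2_2, and leaving out each library. The fits were tested on simulated counts. Exact permutation tests used scipy 1.17.1.

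Gene lengths and transcripts came from GENCODE M1 (mm9), promoters and coordinates from RefSeq on GRCm38.p6, which held promoters of 4 of the 6 genes. Exons of all transcripts were joined for length. Genes named were the 6 family genes and *Tbl1xr1*, role list genes past the threshold and ligands and receptors (some are not reported here), the 5 largest changes each way in the pathway lists, the 2 genes most like each family gene, and markers past the threshold or at 0. Others were named after their values were seen. For the pathway lists, which carry human symbols, the mouse gene of the same symbol was used (123 of 126 found for KEGG). The genes and lists were chosen with earlier results of these data known.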

Additional observations from a re-analysis of the deposited data

How the results depend on the processing

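*Ntrk2* passed the threshold under all 16 alternatives (log2 fold change 0.67 to 0.79), and *Ntrk3* under 15 (0.60 to 0.71). Leaving out GFP replicate 1 gave 0.60 for *Ntrk3*, with an adjusted p of 0.0725. *Bdnf* ran from -0.079 (without GFP replicate 1) to 0.359 (without GFP replicate 2). *Sort1* ran from 0.09 to 0.19 and did not pass. Averaging GFP replicates 1 and 1_1 left 660 genes of all tested past the threshold instead of 1478, 8 instead of 15 KEGG genes and 4 instead of 9 role list genes. With 1 library left out, the counts ran from 558 (without GFP replicate 1) to 2396 (without Cre replicate 2) for all genes, from 6 to 21 for KEGG and from 2 to 11 for the role lists. Of the 41 other named genes, 32 passed the threshold as reported, and only these could lose a call. Of 651 values of the 41 genes, 80 lost their call, 63 of them with a library left out. A further 4 gained a call and 8 changed sign, all 8 close to 0. Those were *Sorl1* without GFP replicate 1, GFP replicate 2, Cre replicate 2 and Cre replicate 3 (0.17, 0.02, 0.05 and 0.01, with a lowest value of -0.251), *Sorcs1* without GFP replicate 2 and Cre replicate 2_2 (-0.0017 and -0.0025), and *Rgag4* and *Tsen54* without GFP replicate 1 (-0.048 and -0.069, with a highest value of 0.392 for *Tsen54*). The cause of these changes was not tested. Fewer libraries also leave fewer degrees of freedom, and the part of that in the lost calls was not tested either. No paired analysis was possible because the groups share 1 replicate number only, which leaves a single block with both groups. Depth limits *Ngfr* and *Ntf3*, at or near 0 reads.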
